A study of Homo sapiens with 6 samples.

Results

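AP-1 is a family of dimeric transcription factors, and its transcripts were followed here in H226 cells in which the lncRNA *SWINGN* had been targeted. The genes were chosen by name: *FOS*, *FOSB*, *FOSL1*, *FOSL2*, *JUN*, *JUNB*, *JUND* and *MAFF*, 8 in all. Of these, 7 were analysed, among 17222 gene names in the count table and 14660 genes that passed the filter on low counts, and *FOSB* was not analysed here. H226 is an established line of human squamous lung carcinoma. The cells were transiently transfected with either ASO_CTRL, a control antisense oligonucleotide, or ASO_LINC#3, an antisense oligonucleotide against *SWINGN* (libraries ASO_LINC), and were collected 48 h later. Each condition had 3 RNA-seq libraries, made from total RNA with oligo(dT) priming. All libraries came from one cell line and the knockdown from a single oligonucleotide. The study describes its experiments in general as biological triplicates, but the labels do not say whether these replicates were separate cultures, so p-values measure the spread between these libraries.

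AP-1 proteins carry a basic region that contacts DNA and a leucine zipper that holds 2 subunits together. JUN proteins pair with each other or with FOS proteins, whereas FOS proteins depend on a JUN partner. MAFF is a small MAF protein, which has a basic leucine zipper but no activation domain and pairs with CNC proteins such as NRF2 or BACH1 as well as with FOS. Many of these genes are immediate early genes, switched on within minutes of growth factor or stress signals through MAP kinases, and AP-1 in turn drives genes of invasion, inflammation and proliferation in carcinoma cells.

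Reads counted on genes ranged from 3686828 (ASO_LINC replicate 3) to 10546786 (ASO_CTRL replicate 3) per library, of which the 7 subunits took 3059 to 6991 reads. Depletion of *SWINGN* was not checked, since that transcript was not analysed here. Of 8 squamous markers, *KRT5* passed the filter, *KRT6A* had at most 14 reads in a library and the others were not analysed here. All 7 genes of a list of mesothelial markers, *KRT18* and *CALB2* among them, were measured. Its keratins *KRT7*, *KRT8* and *KRT18* are general to simple epithelia, so the sum of this list is no measure of mesothelial identity. Among 8 leukocyte and endothelial markers, only *CD14* passed, with at most 22 reads. The summed level of the mesothelial list was 10432 to 11498 CPM in ASO_CTRL and 6090 to 10598 CPM in ASO_LINC. Most of it came from the keratins *KRT18* and *KRT7*, at means of 5086 and 3822 CPM in ASO_CTRL. In ASO_LINC replicates 1, 2 and 3, *KRT18* was at 2924, 2881 and 5260 CPM. Of the 7 markers, 6 had a negative log2 fold change and 1 a positive one. *CALB2*, at means of 601 CPM in ASO_CTRL and 154 CPM in ASO_LINC, was the 1 marker called. The part of this in the results below was not tested.

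The windows around the start sites of 6 of the 7 genes, taken from RefSeq and found as 1 exact match each in GRCh37, are shown because several members moved together and because AP-1 genes are known to carry sites for AP-1 and CREB/ATF proteins. Each line holds 250 bases before and 20 bases after the annotated start, 5′ to 3′ on the strand of the gene. Capitals mark the letters TGACTCA (the TPA response element, bound by JUN:FOS dimers) and TGACNTCA (which includes TGACGTCA, the cAMP response element), searched on both strands.
FOS, chr14:75745281-75745550, plus strand: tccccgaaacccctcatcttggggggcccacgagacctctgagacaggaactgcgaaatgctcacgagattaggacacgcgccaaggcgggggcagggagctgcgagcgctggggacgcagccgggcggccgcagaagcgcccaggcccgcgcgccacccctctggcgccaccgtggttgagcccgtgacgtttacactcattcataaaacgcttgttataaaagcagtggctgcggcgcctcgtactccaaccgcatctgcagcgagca
JUN, chr1:59249700-59249969, minus strand: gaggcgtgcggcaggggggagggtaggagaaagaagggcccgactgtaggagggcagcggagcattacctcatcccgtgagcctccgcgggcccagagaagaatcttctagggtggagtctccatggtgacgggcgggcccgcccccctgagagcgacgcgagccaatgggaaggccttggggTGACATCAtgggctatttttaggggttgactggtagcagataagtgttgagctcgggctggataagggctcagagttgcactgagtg
JUNB, chr19:12902050-12902319, plus strand: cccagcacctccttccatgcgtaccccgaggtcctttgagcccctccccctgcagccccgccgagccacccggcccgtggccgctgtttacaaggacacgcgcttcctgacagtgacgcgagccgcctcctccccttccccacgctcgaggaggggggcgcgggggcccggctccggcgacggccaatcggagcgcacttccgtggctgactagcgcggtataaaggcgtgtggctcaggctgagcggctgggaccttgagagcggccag
MAFF, chr22:38597751-38598020, plus strand: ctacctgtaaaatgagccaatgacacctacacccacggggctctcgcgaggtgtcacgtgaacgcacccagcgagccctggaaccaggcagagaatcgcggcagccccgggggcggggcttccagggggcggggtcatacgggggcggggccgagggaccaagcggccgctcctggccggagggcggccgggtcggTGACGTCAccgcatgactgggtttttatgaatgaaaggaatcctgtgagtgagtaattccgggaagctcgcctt
JUND, chr19:18392413-18392682, minus strand: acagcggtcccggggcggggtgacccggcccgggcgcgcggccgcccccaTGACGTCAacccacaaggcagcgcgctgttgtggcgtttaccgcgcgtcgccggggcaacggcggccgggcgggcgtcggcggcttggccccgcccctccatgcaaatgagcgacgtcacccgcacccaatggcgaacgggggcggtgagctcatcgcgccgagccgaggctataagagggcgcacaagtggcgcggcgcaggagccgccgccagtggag
FOSL2, chr2:28615475-28615744, plus strand: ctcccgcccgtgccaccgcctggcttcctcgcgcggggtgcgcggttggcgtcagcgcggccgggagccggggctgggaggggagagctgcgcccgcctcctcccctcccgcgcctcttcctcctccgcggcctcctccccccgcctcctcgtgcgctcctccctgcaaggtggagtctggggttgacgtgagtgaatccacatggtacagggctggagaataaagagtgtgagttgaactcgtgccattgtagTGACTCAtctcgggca

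The *JUN* window held TGACATCA starting 67 bases before the start. The *MAFF* window held TGACGTCA at 54 bases and the *JUND* window the same letters at 200 bases before the start. In *FOSL2* the window held TGACTCA, beginning 4 bases after the start. No such letters were found in the windows of *FOS* and *JUNB*, nor in a second RefSeq window of *MAFF* that is not shown. Only these exact letters were searched, so related sites that differ from them, in *FOS* and *JUNB* as in the others, would be missed. A CArG box, the site of serum response factor, was found in none of the 7 windows. Sequence farther upstream was not searched, so the windows cannot show whether *FOS* or the other genes carry a CArG box there. Of 35116 RefSeq windows of the same length, 4.6% held TGACTCA, 1.83% TGACGTCA, 7.39% TGACNTCA and 1.22% a CArG box. The form TGACNTCA was added after the windows had been read. Letters of this kind were found in genes that rose and in genes that did not (below), and a match of letters is a description only.

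After *SWINGN* knockdown, 5 of the 7 subunits rose and none fell. *FOS* had the largest fold change of the 7, followed by *MAFF*, *FOSL1*, *JUNB* and *JUN*, whereas *FOSL2* and *JUND* did not pass the test. *FOS* passed the filter on low counts only through its ASO_LINC libraries, so it could be called only as higher. Calls were made with edgeR's quasi-likelihood test where the Benjamini-Hochberg adjusted p, taken over all genes tested, was under 0.01 and the log2 fold change exceeded 0.5 in size. Of all genes tested, 7.54% were called, 4.91% as higher and 2.63% as lower. The median log2 fold change was 1.59 over the 7 subunits and −0.00272 over all genes tested. In bulk RNA, a change in every cell and a change in some of them cannot be told apart, nor can fewer cells of a type and less RNA per cell. In 6 of the 7, the CPM (reads scaled to the depth of the library by edgeR's TMM method) of the ASO_LINC libraries lay above all ASO_CTRL libraries, as was the case for 18.7% of all genes tested (36.1% with either direction counted). With 3 libraries against 3 the exact permutation test of a single gene gives a two-sided p of 0.1 at the least, and this was the value for those 6 genes. Without any 1 of 5 libraries (all except ASO_LINC replicate 3), 4 subunits were called, *JUN* being the one lost.

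**Figure D1:**
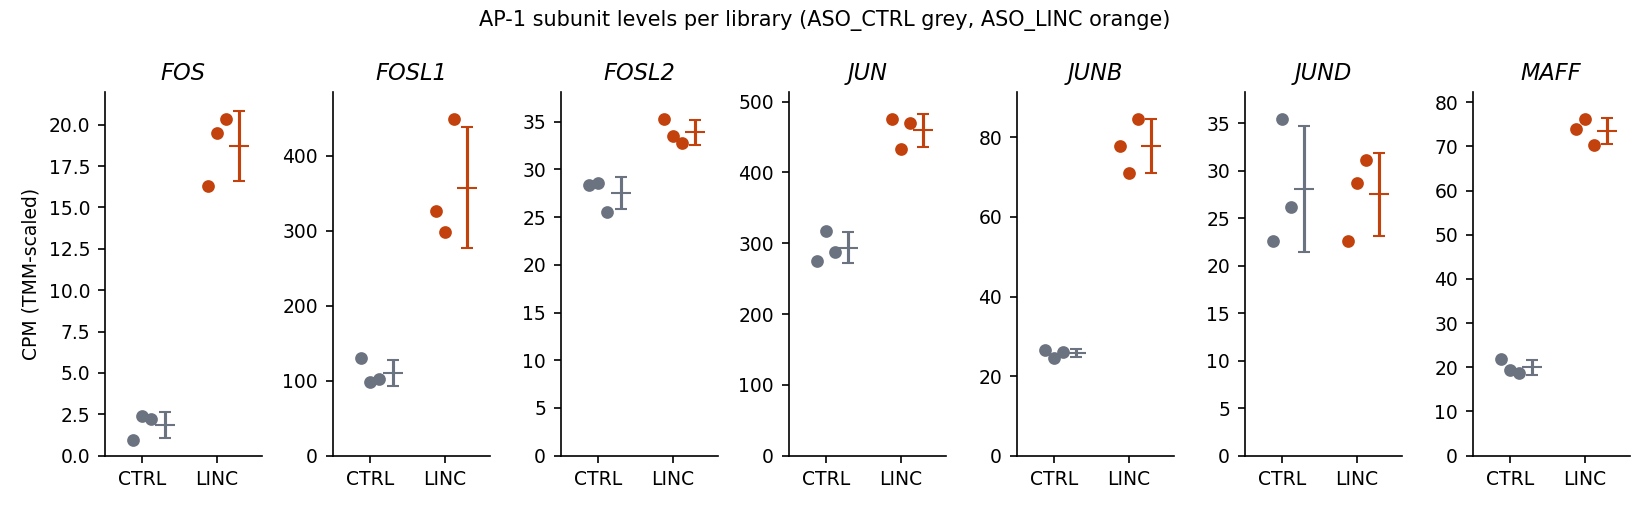
CPM of each analysed AP-1 subunit in every library (points; vertical axis linear from 0, own scale per gene), with the mean and SD of the 3 libraries beside them; ASO_CTRL is grey and ASO_LINC orange. The conditions are apart for all genes but *JUND*, and the step is small for *FOSL2*.

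Among the FOS proteins, *FOS* (chromosome 14, GRCh37 75745529 to 75748933, plus strand) is the prototype of the family and has a very short-lived mRNA. It had 7, 14 and 23 reads in ASO_CTRL replicates 1, 2 and 3, or 0.943, 2.41 and 2.19 CPM. In ASO_LINC it had 111, 114 and 75 reads, or 16.3, 19.5 and 20.3 CPM. The lowest knockdown library was thus well above the highest control. The log2 fold change was 3.32 (SE 0.28, 95% interval 2.69 to 3.95), that is 9.99-fold, with an adjusted p of 5.37e-05 from edgeR. The low control counts widen this interval beyond those of the other subunits, and without ASO_CTRL replicate 1 the change was 3.02. The control libraries of *FOS* alone would not have passed the filter on low counts, so a call as lower was not open to it.

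*FOSL1* encodes FRA1, a FOS protein without the transactivation domain of FOS that is often abundant in mesenchymal-like and RAS-driven carcinoma cells. The gene lies on chromosome 11 from 65659520 to 65668044, minus strand. It stood at 131, 98.4 and 103 CPM in ASO_CTRL and at 326, 298 and 449 CPM in ASO_LINC. All knockdown libraries were high, replicate 3, which has the fewest reads, most of all. Its log2 fold change came to 1.69 (SE 0.18, adjusted p = 0.000198 from edgeR), or 3.23-fold. Leaving out 1 library at a time gave changes from 1.50 to 1.83.

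*FOSL2* encodes FRA2 and lies on chromosome 2 from 28615315 to 28640184, plus strand. Its levels were 28.4, 28.6 and 25.6 CPM in ASO_CTRL and 35.3, 33.5 and 32.8 CPM in ASO_LINC. The conditions did not overlap, but the step was small beside those of *FOS* and *FOSL1*. The log2 fold change of 0.30 (SE 0.14, 95% interval −0.000887 to 0.61) had an adjusted p of 0.156 from edgeR. The interval leaves room for a rise of up to 1.53-fold.

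Among the JUN proteins, *JUN* (chromosome 1, 59242517 to 59249720, minus strand) is the main activating partner and, like *JUNB* and *JUND*, has a canonical transcript of 1 exon. It had 275, 317 and 288 CPM in ASO_CTRL and 475, 433 and 470 CPM in ASO_LINC. The knockdown libraries were close to each other and above every control. The log2 fold change was 0.65 (SE 0.12, 95% interval 0.38 to 0.91), with an adjusted p of 0.00467 from edgeR. This call was the least stable of the 5: without a single library other than ASO_LINC replicate 3 the adjusted p was between 0.0117 and 0.0357, while the change stayed between 0.60 and 0.71. It was also lost with the replicate number as a block (adjusted p = 0.0220 from edgeR). A test of a change beyond 0.5 itself (glmTreat) gave an adjusted p of 0.314.

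*JUNB* encodes a weaker activator that can restrain JUN on some promoters. The gene spans positions 12902300 to 12904129 on the plus strand of chromosome 19. It stood at 26.7, 24.6 and 26.1 CPM in ASO_CTRL and at 77.7, 71.0 and 84.6 CPM in ASO_LINC. Controls varied little, and each knockdown library was far above them. The fitted log2 fold change was 1.59 (SE 0.14, adjusted p = 5.37e-05 from edgeR), or 3.01-fold.

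*JUND* is known for steady expression in unstimulated cells. It lies on chromosome 19 from 18390504 to 18392432, minus strand, and its canonical transcript, at 69.9% GC, was the most GC-rich of the 7. It had 22.6, 35.4 and 26.2 CPM in ASO_CTRL and 22.6, 28.8 and 31.2 CPM in ASO_LINC. The conditions overlapped fully, with both the lowest and the highest value in ASO_CTRL. The log2 fold change was −0.03 (SE 0.20, 95% interval −0.47 to 0.41, adjusted p = 0.932 from edgeR), so that changes between 0.721-fold and 1.33-fold lay within the interval. Its sign turned to 0.10 when a trend on GC content and transcript length was removed.

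*MAFF* (chromosome 22, 38596774 to 38612514, plus strand) stood at 21.8, 19.4 and 18.6 CPM in ASO_CTRL and at 73.9, 76.2 and 70.2 CPM in ASO_LINC. Its libraries agreed closely within each condition, and it had the smallest p-value of the 7. For this gene the log2 fold change was 1.88 (SE 0.14, adjusted p = 1.97e-05 from edgeR), or 3.68-fold. Exons of *MAFF* and *JUNB* overlap exons on the opposite strand by 326 and 259 bases in the annotation used here (*PLA2G6* and *HOOK2*). Whether reads were counted by strand is not given in the sources used here, so these 2 counts are less certain.

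**Figure D2:**
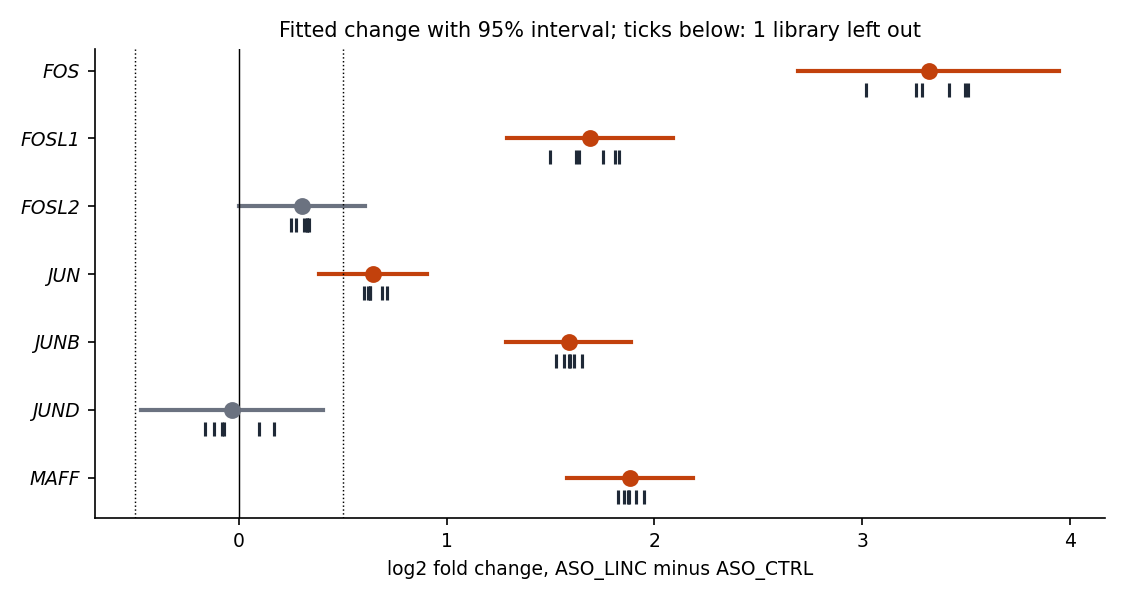
Fitted log2 fold change (ASO_LINC minus ASO_CTRL) of each subunit with its 95% interval, orange where called and grey where not; dotted lines mark the bound of 0.5 and black ticks the values with 1 library left out. The ticks of *FOS* run from 3.02 to 3.51 and those of *JUND* lie on both sides of 0.

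To compare levels between subunits, CPM were divided by the length of the canonical transcript in kilobases. These values rest on the annotated lengths, and coverage along the transcripts was not tested. In ASO_CTRL, *JUN* had the highest level at 90.2 ± 6.62 CPM per kb (SD, n = 3), followed without overlap by *FOSL1* at 65.0 ± 10.3. *JUND* at 14.6 ± 3.43 and *JUNB* at 14.1 ± 0.58 came next and overlapped. *MAFF* had 8.41 ± 0.70, *FOSL2* 4.10 ± 0.25 and *FOS* 0.88 ± 0.38 CPM per kb, in this order and without overlap.

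In ASO_LINC the order differed. *FOSL1* was first, at 210 ± 47.2 CPM per kb (SD, n = 3), above *JUN* at 141 ± 7.17. *JUNB* followed at 42.5 ± 3.71, then *MAFF* at 30.9 ± 1.26, *JUND* at 14.3 ± 2.28, *FOS* at 8.90 ± 1.01 and *FOSL2* at 5.05 ± 0.19. No 2 neighbours in this order overlapped. Compared with the order in ASO_CTRL, *FOSL1* had passed *JUN*, *MAFF* had passed *JUND* and *FOS* had passed *FOSL2*. Only the change between *MAFF* and *JUND* was also seen in CPM that were not divided by length, a scale added after the data were seen. On that scale *FOSL1* stayed below *JUN* in every ASO_LINC library, at 0.686, 0.689 and 0.954 of its CPM, and *FOS* below *FOSL2*, at 0.463, 0.582 and 0.620.

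The summed level of the 7 subunits was 201.6, 201 and 189 CPM per kb in ASO_CTRL and 436, 408 and 515 CPM per kb in ASO_LINC. The makeup of that sum also differed between the conditions. *JUN* made up 42.0, 48.6 and 46.7% of it in the controls and 33.5, 32.6 and 28.1% after knockdown. The share of *FOSL1* was 38.1, 28.8 and 31.8% in the controls and 44.0, 42.9 and 51.2% after knockdown. *JUND* went from 7.39 ± 1.68% to 3.16 ± 0.48% (SD, n = 3), although its own level did not pass the test, and *FOS* from 0.45 ± 0.20% to 1.98 ± 0.26%. These shares are given as a description, without a test.

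The ratio of the FOS family (*FOS*, *FOSL1*, *FOSL2*) to the JUN family (*JUN*, *JUNB*, *JUND*), in CPM per kb, was 0.735, 0.489 and 0.559 in ASO_CTRL and 1.02, 1.01 and 1.35 in ASO_LINC. Per kb, the JUN family was thus the larger in every control library and in no knockdown library. Without division by length the ratio was 0.493, 0.343 and 0.383 in ASO_CTRL and 0.656, 0.659 and 0.857 in ASO_LINC. It was again higher in each knockdown library than in any control, but the JUN family was then the larger in all 6 libraries. Within the FOS family *FOSL1* took 92.8 ± 1.41% in ASO_CTRL and 93.6 ± 1.15% in ASO_LINC, so that its share was close in both. Within the JUN family, *JUNB* went from 11.9 ± 1.40% to 21.5 ± 0.80% and *JUN* from 75.9 ± 0.46% to 71.3 ± 1.54%. The ratio of *JUNB* to *JUND* was 1.01 ± 0.26 in the controls and 3.03 ± 0.53 after knockdown.

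**Figure D3:**
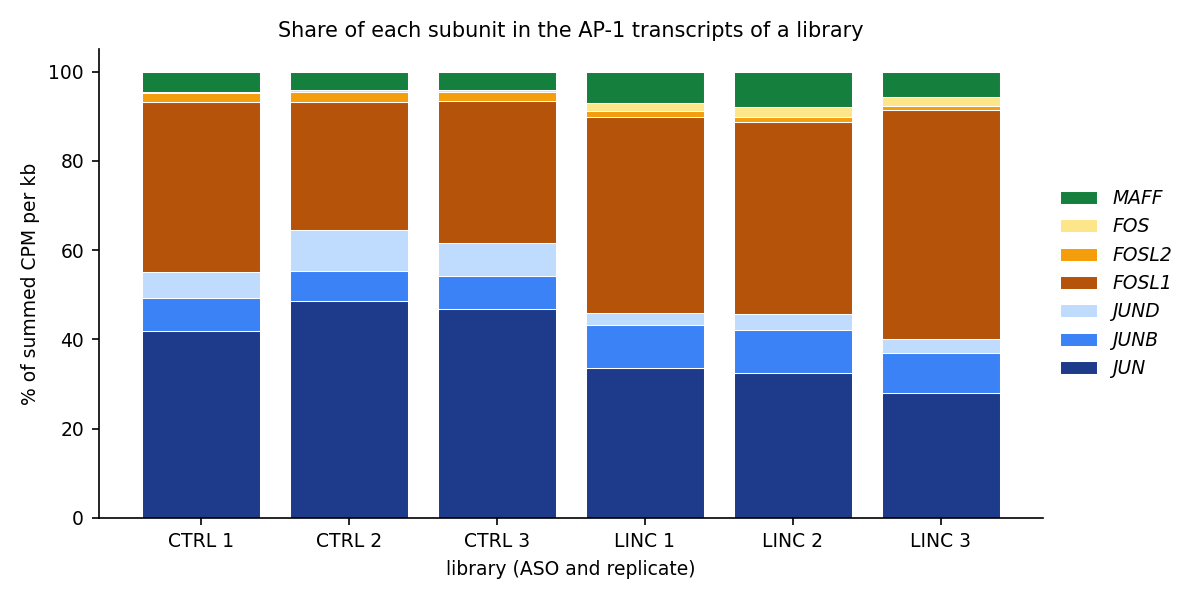
Share of each subunit (percent, vertical axis) in the summed CPM per kb of the 7 subunits, 1 bar per library. On this scale *FOSL1* is the largest part in every ASO_LINC library and *JUN* in every ASO_CTRL library, whereas in CPM not divided by length *JUN* is above *FOSL1* in all 6.

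The genes around AP-1 were described with 5 lists that were written with earlier results of these data known. Of 22 tested immediate early genes other than the subunits, 11 rose and 0 fell, with a median log2 fold change of 1.03, whereas 4.91% of all genes tested rose and 2.63% fell. A called gene with at most 9 reads in each control library passed the filter on low counts only through ASO_LINC. It could therefore be called only as higher. The filter is set on CPM, so genes with more control reads, *FOS* among them, can be bound in the same way. *KLF6*, a zinc finger factor, stood at 115 ± 4.94 CPM in ASO_CTRL and 322 ± 12.9 CPM in ASO_LINC (SD, n = 3). *KLF10*, a factor induced by TGF-beta, rose from 52.8 ± 4.95 to 131 ± 8.11 CPM, and *MCL1*, an anti-apoptotic BCL2 relative, from 151 ± 7.46 to 338 ± 19.6 CPM. Without ASO_CTRL replicate 3, 5 genes of this list were called, and without ASO_LINC replicate 3, 15 were.

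Of the 23 tested genes with reported AP-1 sites, 17 rose and 1, *CCL2*, fell (4.91% and 2.63% of all genes tested). The median log2 fold change was 1.43. The list holds 3 genes of at most 3 reads in each control library. Setting these to their lower bound is no test of the median, since they stay above it either way. They and others of the list with few control reads passed the filter on low counts only through ASO_LINC. Such genes could be called only as higher. The integrin *ITGA2* rose from 25.5 ± 2.56 to 226 ± 40.1 CPM and the angiogenic factor *VEGFA* from 55.3 ± 3.55 to 249 ± 16.9 CPM. The count of called genes was between 12 and 18 when 1 library was left out. Several genes of the list had been named in earlier results of these data, so the count is not independent evidence of a direction, and AP-1 binding at these genes was not analysed here.

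Of 26 other basic leucine zipper factors tested, 5 rose and 2 fell, with a median of 0.30 and beside 4.91% and 2.63% of all genes tested. *ATF3*, a stress-induced partner of JUN, rose from 24.7 ± 0.47 to 89.6 ± 7.35 CPM, and *DDIT3*, the stress factor CHOP, from 61.9 ± 4.43 to 190 ± 21.0 CPM. *CEBPD*, a C/EBP factor of the acute phase response, fell from 411 ± 32.4 to 146 ± 28.1 CPM. Among the partners and relatives of MAFF, chosen after their values were seen, *MAFG* rose from 47.2 ± 4.26 to 104 ± 3.47 CPM and *BACH1* from 11.6 ± 0.83 to 34.2 ± 9.77 CPM, whereas *MAF*, a large MAF protein with an activation domain, fell from 14.2 ± 0.73 to 7.03 ± 0.77 CPM. *MAFK*, at 25.1 ± 4.51 and 34.1 ± 8.75 CPM, and *NFE2L2*, which encodes NRF2, at 152 ± 14.6 and 163 ± 33.3 CPM, were not called, nor were *NFE2L1*, *NFE2L3* and *BACH2*. Without ASO_LINC replicate 3, 11 factors of this list were called, 6 as higher and 5 as lower. Without any other 1 library, 5 or 6 were called.

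Of 22 tested MAP kinases, their activators and RSK kinases (the *RPS6KA* genes), 1 was called, a share of 4.55% beside 7.54% of all genes tested. *MAP2K1*, the ERK activator MEK1, rose from 78.3 ± 7.53 to 223 ± 49.2 CPM (log2 fold change 1.51, adjusted p = 0.000312 from edgeR), and the median of the list was 0.05. Of 8 tested genes for serum response factor, its cofactors and MEF2 factors, 2 rose, beside 4.91% of all genes tested. *ELK3*, a ternary complex factor, rose from 102 ± 12.5 to 239 ± 35.9 CPM and *MEF2D* from 31.1 ± 2.39 to 58.4 ± 13.2 CPM. Without any 1 of the same 5 libraries 1 gene of this list was called, and without ASO_LINC replicate 3 there were 4, with 2 among the kinases. RNA levels give no measure of kinase activity.

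**Figure D4:**
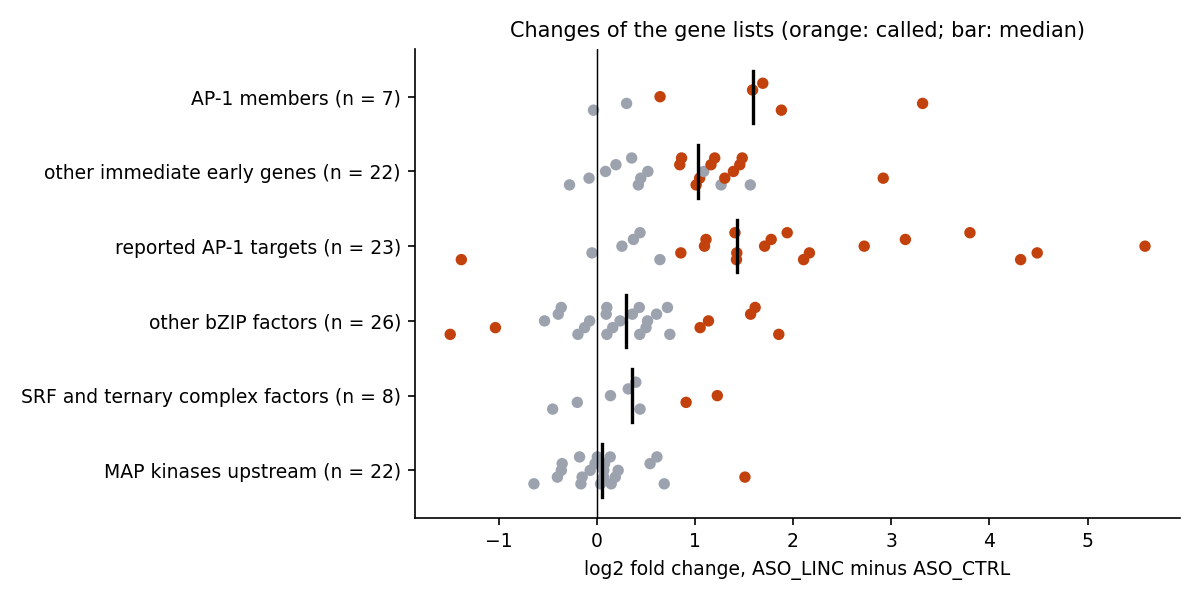
Log2 fold change (ASO_LINC minus ASO_CTRL, horizontal axis) of the tested genes of each list, 1 point per gene, orange where called, with the median as a black bar. The medians are 1.59 for the AP-1 subunits, 1.03 for the other immediate early genes and 1.43 for genes with reported AP-1 sites. The median is 0.05 for the list of MAP kinases, their activators and RSK kinases.

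For the 2 subunits with the smallest p-values, the genes of most like pattern over the 6 libraries were sought, by the root mean square difference of log2 CPM centred on the control mean, among genes averaging 50 counts or more. For *MAFF* these were *MT2P1*, *ATF3* and *F3*, at differences of 0.09, 0.11 and 0.11. *MT2P1* is a metallothionein pseudogene whose reads may belong to its parent gene. For *JUNB* they were *DDIT3*, *PNP* and *NMNAT2*, at 0.06, 0.09 and 0.09. *F3*, which encodes tissue factor, went from 201 ± 10.7 to 742 ± 99.0 CPM, and *PNP*, a purine salvage enzyme, from 31.9 ± 3.79 to 92.2 ± 2.71 CPM (SD over 3 libraries).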

How the data were processed

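RNA-seq was measured in 6 libraries of H226 cells, 3 ASO_CTRL and 3 ASO_LINC, grouped by their labels. STAR was used by the authors to align single reads to hg19, and the deposited values are raw counts for each gene name, neither normalized nor pooled. Which program counted them, on which annotation and strand setting, is not given in the sources used here. The methods paragraph names BJ cells, the labels H226. Rows of unassigned reads (24.8 to 28.1% of each library) were left out. Columns of other samples were 0.

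Conditions were tested with edgeR 4.0.16 under R 4.3.3 (filterByExpr, TMM, quasi-likelihood F-test, no block for the replicate number), fitted on the whole table with Benjamini-Hochberg adjustment. The calls used the cutoffs of the study's methods, adjusted p under 0.01 and log2 fold change over 0.5 in size. Intervals are 95% intervals of the fit. Library changes and patterns use log2 CPM with a prior count of 2. Replicates of a condition differed beyond counting error (chi-square per degree of freedom between their counts 2.50 to 14.0). The comparison was tested on simulated data. Alternatives were DESeq2 1.42.0, limma-voom (limma 3.58.1), other scalings, filters and thresholds, a replicate block, a correction for GC content and length, and leaving out each library.

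GENCODE lifted to GRCh37, possibly another release than the authors', gave positions, lengths and GC content, and 80.5% of the tested genes matched it by name. Promoter windows came from RefSeq. Named genes were all subunits, the 3 called genes of smallest p-value in each list (or all called where fewer) and the 3 genes of most like pattern for each of 2 subunits, and 1 gene that this rule names is not reported here. Markers, *CCL2* and the partners and relatives of MAFF were named outside it, after their values were seen. The members, lists and this rule were chosen with earlier results of these data known.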

Additional observations from a re-analysis of the deposited data

How the results depend on the processing

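*FOS*, *FOSL1*, *JUNB* and *MAFF* kept their direction and their call under every alternative that gave them a value, 19 for each and 18 for *FOS*, which a minimum of 10 counts in every library removed. Of these alternatives, the looser threshold of adjusted p below 0.05 used the same fit and could not remove a call. The log2 fold changes of these genes ranged from 3.02 to 3.51, 1.50 to 1.83, 1.53 to 1.67 and 1.83 to 1.95. *JUN* lost its call under 7 of 19 alternatives: glmTreat, the replicate block (adjusted p = 0.0220) and 5 of the 6 fits without 1 library, with changes from 0.60 to 0.71 throughout. *FOSL2* was not called under any of its 19 alternatives (0.25 to 0.34). *JUND* was not called either, with changes from −0.16 to 0.17 when 1 library was left out, and its sign turned under the GC and length correction (0.10), that correction with the block (0.092), without ASO_CTRL replicate 2 (0.17) and without ASO_LINC replicate 1 (0.10), and the cause was not tested. The number of subunits called was 4 or 5 throughout.

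The number of all genes called, 1106 as reported, was 2465 at an adjusted p below 0.05, 384 with glmTreat and 656 with the replicate block, and from 359 to 2616 when 1 library was left out, the highest without ASO_LINC replicate 3, the library with the fewest reads. The GC and length correction, on the 11799 genes with a value, gave 1573 and with the block 1135. DESeq2 called 1526. Of the genes of the 5 lists together 39 were called, and from 24 (without ASO_CTRL replicate 3) to 50 (without ASO_LINC replicate 3) when 1 library was left out. The correlations of deviations were 0.06, −0.15 and −0.18 for same-numbered libraries and from −0.14 to 0.19 for the others. With 3 libraries per condition, these values cannot decide whether the replicate numbers pair the libraries. Without division by transcript length, an alternative chosen after seeing the data, the mean ratio of the FOS to the JUN family was 0.406 in ASO_CTRL and 0.724 in ASO_LINC, against 0.595 and 1.13 per kb. Depth limits *FOS* most, with 7 to 23 reads in the controls.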
